A study of Homo sapiens with 6 samples.

Results

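The genes described are 7 that encode CLC chloride channels, CLC chloride-proton exchangers or a subunit of one: CLCN2, CLCN3, CLCN4, CLCN5, CLCN6, CLCN7 and OSTM1. They are 7 of the 28395 genes in the table and were taken by symbol through their NCBI gene IDs. CLCN5 was chosen for its fall in this same contrast, so its change is given as a description with no test. The other 6 were chosen by family name, or, for OSTM1, by its partnership with CLCN7. All 7 passed the filter on low counts that left 14776 genes for testing.

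RNA was sequenced in bulk from H146 (NCI-H146) cells, an established small-cell lung cancer (SCLC) line, on day 2 after transfection with siRNA. The control group was the unmodified line given a scrambled negative control siRNA, and the other group was the same line given siRNA against KIFC1, a kinesin motor that clusters centrosomes. Each group had 3 libraries, which the labels call biological replicates, and the comparison asked which transcripts change when KIFC1 is depleted. The study used a pair of KIFC1 siRNAs with a lipid transfection reagent, and the library names carry the number 2 for the sequenced knockdown. Both groups therefore share 1 line and 1 time point, and the KIFC1 group is a transient knockdown whose siRNA sequence the labels do not give. In bulk RNA, fewer cells that express a gene and less of its RNA in each cell cannot be told apart.

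Libraries held 15392374 to 17754458 counts, and 8.34% to 13.1% of them lay on mitochondrial genes. Control libraries 1 to 3 held 14, 4 and 14 counts of KIFC1 and the KIFC1 siRNA libraries 1, 1 and 0, at least 3.23-fold lower when each library is given a floor of 3 counts. All 10 neuroendocrine SCLC markers passed the filter. Their summed levels in CPM (counts per 1e6 counts, scaled by TMM, edgeR's trimmed mean of M values) were 3430 to 3880 in control cells. After KIFC1 siRNA they were 3620 to 4150 CPM. Of the 10, 0 were called, beside 0.332% of all genes tested called higher and 0.379% called lower. CHGA, 1 of the 10, stood apart in KIFC1 siRNA replicates 2 and 3, with 818 and 482 counts beside 104 to 147 in the other 4 libraries. The 11 markers of fibroblasts, leukocytes, endothelium and kidney proximal tubule summed to 17.7 to 24.5 CPM in every library. They were not uniformly absent. COL1A2 (113 to 197 counts), VWF (64 to 80), COL1A1 (28 to 59), CD68 (17 to 58) and PTPRC (21 to 57) were detected in every library, LRP2 had 2 to 18 counts, CUBN 3 to 7 and PECAM1 4 to 7, and DCN, CD3E and SLC34A1 had no more than 3. Of the 5 that passed the filter, 0 were called, beside the same shares of all genes tested. The part of these markers in the results was not tested.

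CLC proteins work as dimers in which each subunit has its own chloride pathway. CLCN2 encodes a channel of the plasma membrane, whereas CLCN3 to CLCN7 encode proteins of endosomes and lysosomes that, as far as they have been studied, exchange chloride for protons alongside the proton pump (V-ATPase). CLCN5 is best known from the proximal tubule of the kidney, where its loss causes Dent disease with defective endocytosis, and CLCN7 with its subunit OSTM1 is best known from lysosomes and osteoclasts, where loss of either causes osteopetrosis.

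CLCN5 lies on chromosome X of GRCh38 from 49922596 to 50099235, on the plus strand, with 15 exons in its canonical GENCODE 44 transcript and a 3′ UTR of 7011 bases. That 3′ UTR is the longest of the 7, which run from 421 bases in CLCN2 to 7011 bases. The stretches shown here hold a word of 7 bases, GAGATCT, which was picked out on these same libraries as a word of genes that were lower after KIFC1 siRNA, so its presence in CLCN5 is not independent evidence. KIFC1 itself holds the word in its coding sequence. They are printed 5′ to 3′ on the transcript strand with 10 bases on either side and the word in capitals, because CLCN5 holds the word and the 6 other members do not.
CLCN5 coding (chrX:50090484-50090510, plus strand): gtcctccgaaGAGATCTcattatttca
CLCN5 3′ UTR (chrX:50095688-50095714, plus strand): agggtttagtGAGATCTaaggccgtga
CLCN5 3′ UTR (chrX:50098904-50098930, plus strand): aactagcctcGAGATCTtaaccgctct
KIFC1 coding (chr6:33405472-33405498, plus strand): aagctacgtaGAGATCTacaatgagac

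The first of the 3′ UTR copies began 3479 bases past the stop codon of CLCN5, and the second began 6695 bases past it. The longest run of bases shared with the KIFC1 stretch across the word was 8 in the coding copy, 8 in the nearer 3′ UTR copy and 7, the word alone, in the farther one. The canonical transcripts of CLCN2, CLCN3, CLCN4, CLCN6, CLCN7 and OSTM1 held 0 copies anywhere. Among the 12971 tested genes with a 3′ UTR of at least 50 bases, the word occurred in 8.97% and at least 2 copies in 0.971%, read on the transcript strand only. Both shares were higher in genes with long 3′ UTRs. Among the 457 tested genes with a 3′ UTR at least as long as that of CLCN5, 39.6% held the word and 10.7% held at least 2 copies. A match is a run of letters and not a shown binding site, and its part in the fall of CLCN5 was not tested.

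The other members are spread over the genome (GRCh38, GENCODE 44). CLCN4 shares chromosome X with CLCN5, from 10156975 to 10237660 on the plus strand. CLCN3 lies on chromosome 4 from 169612633 to 169723673 (plus), CLCN2 on chromosome 3 from 184346185 to 184361650 (minus), and CLCN6 on chromosome 1 from 11806096 to 11848079 (plus). CLCN7 lies on chromosome 16 from 1444934 to 1475077 (minus), and OSTM1 on chromosome 6 from 108029245 to 108165854 (minus). The encoded CLC proteins have 760 residues (CLCN4) to 898 residues (CLCN2) in the canonical transcripts, with 816 in CLCN5, and OSTM1 has 334.

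The levels of the family in control cells were not used by the choice of genes. They are given as CPM per kilobase of exon, with each gene's length taken as the union of its GENCODE 44 exons, so that different genes can be set side by side. CLCN7, the lysosomal exchanger, stood at 14.9, 16.5 and 16.9 CPM per kb in control replicates 1 to 3 (16.1 ± 1.05, SD, n = 3). CLCN3, an exchanger of endosomes and synaptic vesicles, stood at 14.3, 14.2 and 15.9 CPM per kb (14.8 ± 0.949, SD, n = 3). These are the highest levels of the 7, and their ranges overlap. CLCN4, an endosomal exchanger that pairs with CLCN3, followed at 8.41, 8.15 and 9.26 CPM per kb (8.60 ± 0.583, SD, n = 3), and its range lay below both.

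CLCN6, an exchanger of late endosomes in neurons, stood at 2.87, 3.32 and 3.58 CPM per kb (3.26 ± 0.361, SD, n = 3). CLCN5 stood at 2.32, 2.13 and 2.45 CPM per kb (2.30 ± 0.159, SD, n = 3) and CLCN2 at 2.06, 2.06 and 2.24 (2.12 ± 0.102, SD, n = 3). The ranges of CLCN5 and CLCN2 overlap, and both lie below that of CLCN6. OSTM1 was lowest, at 0.870, 0.921 and 0.934 CPM per kb (0.908 ± 0.0340, SD, n = 3), 2.33-fold below CLCN2. Over the 14324 tested genes with an exon length, whose median level was 5.01 CPM per kb, CLCN7 stood at percentile 80.1, CLCN3 at percentile 78.2 and CLCN4 at percentile 64.8. CLCN6 (percentile 39.1), CLCN5 (32.1), CLCN2 (30.8) and OSTM1 (18.4) lay below that median.

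The order depends in part on the length assigned. With each gene's longest transcript in place of the exon union, 5 of the 7 kept their place, and CLCN5 (2.61 CPM per kb) and CLCN2 (3.91 CPM per kb) changed places. CLCN7 then stood at 32.1 CPM per kb and OSTM1 at 2.45.

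After KIFC1 siRNA, CLCN5 was the member that was lower, at less than its control level in every library, while the 6 others did not pass the test. CLCN5 had 443, 390 and 515 counts in control replicates 1 to 3 and 185, 163 and 218 counts in KIFC1 siRNA replicates 1 to 3. On the TMM-scaled scale its levels were 26.6, 24.4 and 28.0 CPM in control cells and 11.8, 10.7 and 13.35 CPM after KIFC1 siRNA. The highest KIFC1 siRNA library lay below the lowest control library, and the spread within each group was small beside the gap. Means were 26.4 ± 1.83 CPM (SD, n = 3) and 11.97 ± 1.31 CPM (SD, n = 3), a fitted log2 fold change of -1.14 (SE, the standard error, 0.13, 95% interval -1.43 to -0.85), which is 54.6% lower. The ratio of the libraries with the same replicate number was 0.444, 0.440 and 0.476. These are the values for which CLCN5 was chosen, and they carry no p-value. The 95% interval takes no account of that choice, so its distance from 0 is not read as a test. Its groups did not overlap, as was so in the lower direction for 7.51% of the genes tested, a share from which nothing is read for a gene chosen on this contrast.

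**Figure D1:**
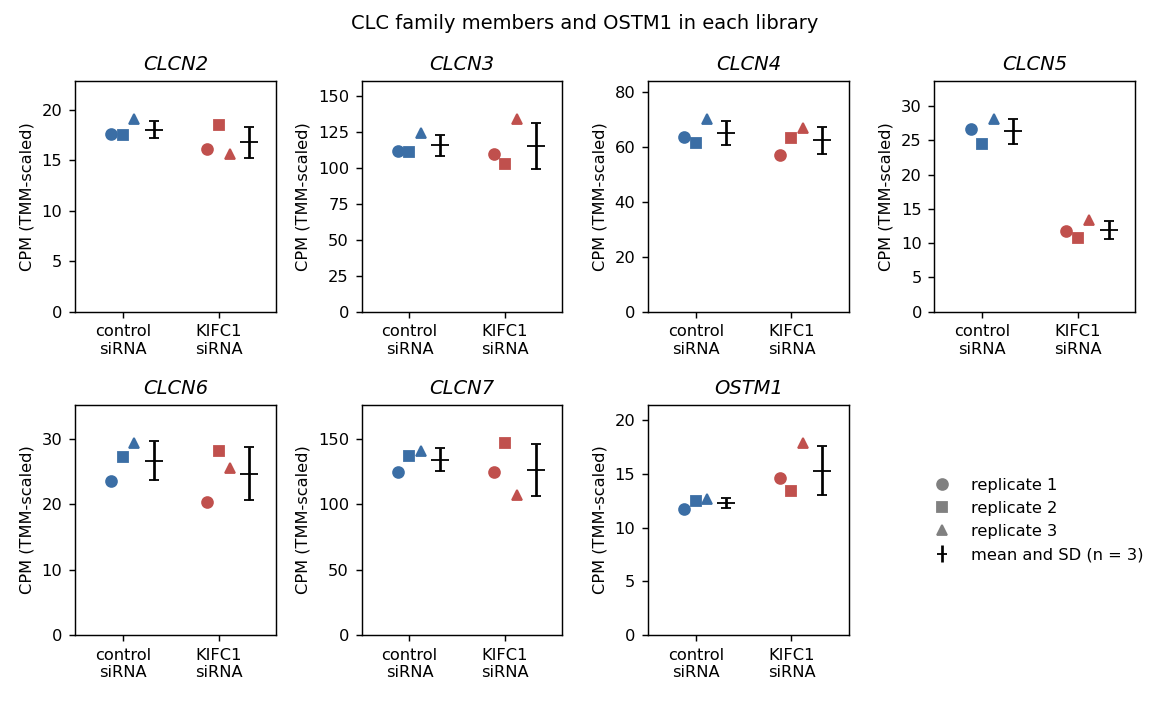
TMM-scaled CPM of the 7 genes in each of the 6 libraries, with blue for control siRNA, red for KIFC1 siRNA, a symbol for each replicate number, and a bar for the mean and SD of 3 libraries. CLCN5 sits at 24.4 to 28.0 in control and 10.7 to 13.35 after KIFC1 siRNA, OSTM1 is the other gene whose groups do not overlap, and the remaining 5 genes overlap.

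The exons of CLCN5 shared 0 bases with any other annotated gene, and those of OSTM1 shared 0 as well. The introns of CLCN5 hold 8 miRNA genes (MIR188, MIR362, MIR500A, MIR500B, MIR501, MIR502, MIR532 and MIR660), which summed to 1 count over all 6 libraries. The labels describe no small RNA library, and that sum is no measure of the mature miRNAs.

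CLCN3 and CLCN4 encode the exchangers most like that of CLCN5 and sit with it on endosomes. CLCN3 stood at 111.9, 111.3 and 124.5 CPM in control cells and 109.6, 103.1 and 133.9 CPM after KIFC1 siRNA. The groups overlap throughout, since KIFC1 siRNA replicate 2 was the lowest of the 6 and replicate 3 the highest. The log2 fold change was -0.004 (SE 0.12, 95% interval -0.27 to 0.26), with a Benjamini-Hochberg adjusted p of 0.997 over the 14776 genes in the quasi-likelihood test of edgeR. CLCN4 stood at 63.6, 61.6 and 70.0 CPM in control cells and 57.2, 63.4 and 66.9 CPM after KIFC1 siRNA, again overlapping. Its log2 fold change was -0.06 (SE 0.11, 95% interval -0.30 to 0.18, edgeR adjusted p = 0.938). The difference between these genes and CLCN5 was not tested, because CLCN5 was chosen by its value.

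Set together per kilobase, the 3 endosomal exchanger transcripts summed to 24.5 to 27.6 CPM per kb in control cells and 22.5 to 27.1 CPM per kb after KIFC1 siRNA. The means were 25.7 ± 1.66 and 24.1 ± 2.63 CPM per kb (SD, n = 3), and the groups overlap. CLCN5 made up 9.27%, 8.70% and 8.87% of that sum in control cells and 4.56%, 4.16% and 4.30% after KIFC1 siRNA. CLCN3 made up 57.1%, 58.0% and 57.6% in control cells and 62.0%, 58.6% and 63.1% after KIFC1 siRNA, and the rest was CLCN4, at 33.3% to 33.6% in control cells and 32.6% to 37.3% after KIFC1 siRNA. The share of CLCN5 carries the fall for which it was chosen and is no further result. What the shares add is scale, since CLCN5 was the smallest of the 3 in every control library.

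CLCN7 and OSTM1 encode the subunits of 1 lysosomal complex. CLCN7 stood at 124.4, 137.1 and 141.1 CPM in control cells and 124.8, 146.7 and 107.5 CPM after KIFC1 siRNA, with KIFC1 siRNA replicate 2 the highest of all and replicate 3 the lowest. The fitted change was -0.09 on the log2 scale (SE 0.12, 95% interval -0.36 to 0.18, edgeR adjusted p = 0.906). OSTM1 stood at 11.8, 12.5 and 12.6 CPM in control cells and 14.6, 13.4 and 17.8 CPM after KIFC1 siRNA. All 3 KIFC1 siRNA libraries lay above all 3 control libraries, as was so in the higher direction for 7.99% of the genes tested. The means were 12.3 ± 0.460 and 15.3 ± 2.29 CPM (SD, n = 3), or a log2 fold change of 0.31 (SE 0.15, 95% interval -0.01 to 0.64) that did not pass the test (edgeR adjusted p = 0.560). The ratio of same-numbered libraries was 1.24, 1.07 and 1.41. Blocking on the replicate number gave an adjusted p of 0.195 in edgeR, the lowest of a range that ran to 0.979 over the alternatives.

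CLCN6 stood at 23.5, 27.2 and 29.3 CPM in control cells and 20.3, 28.1 and 25.6 CPM after KIFC1 siRNA, with replicate 1 the lowest in each group. This gave a log2 fold change of -0.11 (SE 0.15, 95% interval -0.43 to 0.21, edgeR adjusted p = 0.900). CLCN2, the channel of the plasma membrane, stood at 17.6, 17.5 and 19.1 CPM in control cells and 16.2, 18.5 and 15.7 CPM after KIFC1 siRNA, with overlapping groups. On the log2 scale the change was -0.11 (SE 0.13, 95% interval -0.39 to 0.18, edgeR adjusted p = 0.892). The strand setting of the counting is not given in the sources used here, and 3 of these genes share exon bases with a gene on the opposite strand. CLCN2 shared 2103 exon bases with FAM131A, CLCN6 shared 286 with NPPA, and CLCN7 shared 1124 and 183 with a pair of lncRNA genes, so reads in those stretches cannot be assigned with certainty.

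Of the 6 members besides CLCN5, 0 were called higher and 0 lower in the edgeR test, beside 0.332% and 0.379% of the genes tested. With shares that small, a count of 0 among 6 genes is near the background and is no result about the family. None of the 6 had an unadjusted p under 0.05, and 0 were called with DESeq2 or limma-voom. In the fit blocked on replicate number, 0 were called, beside 2.72% of tested genes called higher and 3.06% called lower. Their log2 fold changes were positive in 1 and negative in 5, with a median of -0.07, beside a median of 0.01 and quartiles of -0.12 and 0.13 over all genes tested.

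**Figure D2:**
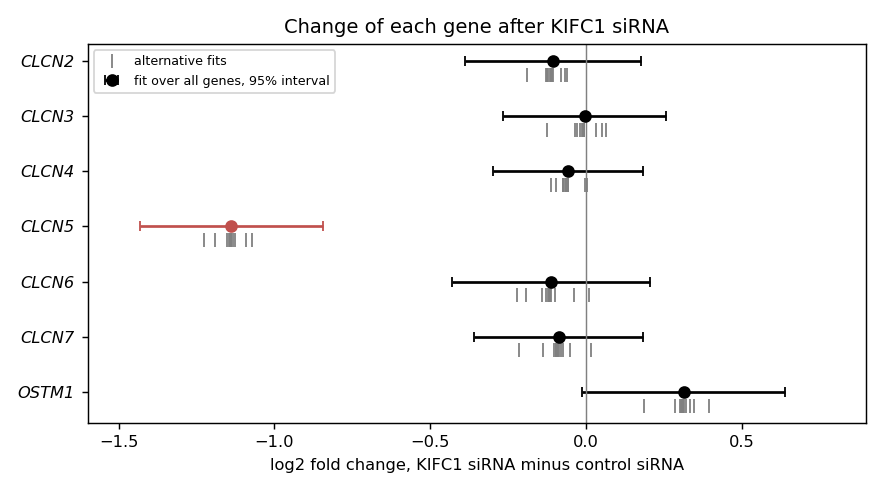
Log2 fold change of each gene, KIFC1 siRNA minus control siRNA, with points and bars for the fit over all genes and its 95% interval, and grey ticks for the alternative fits. CLCN5, in red and chosen by this value, lies at -1.14 with all its alternatives between -1.225 and -1.072. Its bar takes no account of that choice and is not a test. The bars of the 6 others cross 0.

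Outside the 7, some relatives and partners were scarcely detected. CLCN1, the channel of skeletal muscle, had 2, 4 and 3 counts in control cells and 1, 5 and 0 after KIFC1 siRNA. HEPACAM, which binds CLCN2 in glia, and MLC1, listed with it, had no more than 4 counts in any library, and BSND, a CLC channel subunit, no more than 2. TMEM9 and TMEM9B encode membrane proteins that bind endosomal CLC exchangers, and both were detected. TMEM9 stood at 110.4, 125.7 and 115.4 CPM in control cells and 115.8, 132.7 and 101.8 CPM after KIFC1 siRNA, a log2 fold change of -0.005 (SE 0.12, edgeR adjusted p = 0.997). TMEM9B stood at 38.5, 39.8 and 36.4 CPM in control cells and 31.4, 31.55 and 31.5 CPM after KIFC1 siRNA. The groups of TMEM9B did not overlap, as was so in the lower direction for 7.51% of the genes tested. Its log2 fold change of -0.28 (SE 0.11, edgeR adjusted p = 0.403) did not pass the test.

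The closest patterns to CLCN5 were sought by Pearson's r of log2(CPM + 0.5) over the 6 libraries, among 11803 genes with a mean log2 CPM of at least 2. The 5 highest were ADAM10 (r = 0.997), TENT4B (0.996), KPNA6 (0.996), TMEM30B (0.995) and SMG6 (0.995). With 3 libraries on each side, such an r mostly repeats the fall between groups together with the order of libraries inside them, and it is a description. ADAM10, a protease that sheds membrane proteins, stood at 74.2 ± 5.22 CPM in control cells and 34.4 ± 4.98 CPM after KIFC1 siRNA (SD, n = 3), or a log2 fold change of -1.11. Means in control cells and after KIFC1 siRNA were 34.2 ± 0.562 and 19.0 ± 1.47 CPM for TENT4B, a poly(A) polymerase, and 47.4 ± 0.642 and 29.9 ± 2.66 CPM for TMEM30B, a flippase subunit (SD, n = 3). Those of SMG6, a nuclease of nonsense-mediated decay, were 64.7 ± 1.59 and 53.7 ± 1.44 CPM (SD, n = 3). KPNA6, a nuclear import receptor, had nearly the same r with a log2 fold change of only -0.23, from 112.4 ± 1.43 to 96.0 ± 1.25 CPM (SD, n = 3). The other members were far from this pattern, with r of 0.464 for CLCN2, 0.418 for CLCN4, 0.310 for CLCN6, 0.216 for CLCN3, 0.190 for CLCN7 and -0.659 for OSTM1.

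Chloride-proton exchange works beside the V-ATPase, which pumps protons into the same compartments. Of 25 V-ATPase genes, 21 were tested, and 0 were called higher and 0 lower, beside 0.332% and 0.379% of all genes tested, while 2 had an unadjusted p under 0.05, which 9.24% of all genes tested had. Their median log2 fold change was 0.02, beside 0.01 over all genes. DESeq2 and limma-voom also called 0 of these, and 0 of each other list in which edgeR called 0. The lowest p values belonged to ATP6V1B1, a subunit of the kidney and inner ear pump (log2 fold change -0.78, SE 0.30, edgeR adjusted p = 0.417, with 13 to 37 counts per library), and ATP6AP2, an accessory subunit (0.22, SE 0.10, adjusted p = 0.518). The pump genes that hold most of the list's counts moved little, as for ATP6V1A, the catalytic subunit, at 243.0 ± 6.65 CPM in control cells and 246.7 ± 29.7 CPM after KIFC1 siRNA (SD, n = 3).

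Of the channels and exchangers that carry cations across the membranes of endosomes and lysosomes, 16 were tested. Among these, 0 were called (0.332% higher and 0.379% lower over all genes tested). In this list 1 had an unadjusted p under 0.05 (9.24% of all genes tested), and the median log2 fold change was -0.06. SLC9A8, an exchanger of the Golgi, was not that gene. It had a log2 fold change of -0.29 (SE 0.14, edgeR unadjusted p = 0.0536, adjusted p = 0.550). With the replicate block, 0 of the 16 were called higher and 1 lower, beside 2.72% and 3.06% of all genes tested.

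Of 22 tested chloride channels outside the CLC family, 0 were called (0.332% higher and 0.379% lower over all genes tested), 3 had an unadjusted p under 0.05 (9.24% of all), and the median log2 fold change was 0.12. BEST1, a calcium-activated channel, had 16, 11 and 7 counts in control cells and 26, 26 and 26 after KIFC1 siRNA, a log2 fold change of 1.29 (SE 0.35, edgeR adjusted p = 0.164). TTYH3, a tweety family protein, stood at 130.3 ± 9.22 CPM in control cells and 103.2 ± 14.2 CPM after KIFC1 siRNA (SD, n = 3), or a log2 fold change of -0.34 (SE 0.12, edgeR adjusted p = 0.355). With the block both passed, BEST1 at an adjusted p of 0.0207 (range over the alternatives 0.0207 to 0.664) and TTYH3 at 0.0304 (range 0.0304 to 0.955).

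Of 14 tested cation-chloride cotransporters and their regulatory kinases, 0 were called (0.332% higher and 0.379% lower over all genes tested). In this list 2 had an unadjusted p under 0.05 (9.24% of all genes tested). The log2 fold changes of the list were negative in 11 of 14 (47.9% of all genes tested), with a median of -0.11. SLC12A2, which brings chloride into the cell with sodium and potassium, stood at 217.5 ± 20.8 CPM in control cells and 177.7 ± 14.9 CPM after KIFC1 siRNA (SD, n = 3). Its log2 fold change was -0.29 (SE 0.11, edgeR adjusted p = 0.400), and its adjusted p with the block was 0.0238 (range over the alternatives 0.0238 to 1.0). OXSR1, a kinase that acts on these cotransporters, had a log2 fold change of 0.255 (SE 0.11, edgeR adjusted p = 0.518).

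CLCN5 is known for its part in endocytosis, and of the gene lists this was the one with called genes. Of 21 tested endocytic genes, which include Dent disease and endosomal Rab genes, 1 was called higher and 1 lower, beside 0.332% and 0.379% of all genes tested. In the same list 6 had an unadjusted p under 0.05 (9.24% of all), and the median log2 fold change was -0.03. Nothing particular to the list is read from these counts. RAB7A, the small GTPase of late endosomes, rose from 236.7, 177.2 and 166.8 CPM in control cells to 387.5, 357.2 and 357.2 CPM after KIFC1 siRNA. The groups lay far apart, with control replicate 1 above the other 2 controls. The fitted change was 0.92 on the log2 scale (SE 0.13, edgeR adjusted p = 0.00897). It was no longer called without control replicate 2 (adjusted p = 0.0593) and without control replicate 3 (adjusted p = 0.0590), and the range over the alternatives was 8.77e-09 to 0.0593.

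NEDD4L, a ubiquitin ligase of the family that binds the CLCN5 protein, fell from 130.2, 130.7 and 132.4 CPM in control cells to 95.2, 88.1 and 93.4 CPM after KIFC1 siRNA. Neither group spread far, and the gap between them was wide beside that spread. This gave a log2 fold change of -0.51 (SE 0.10, edgeR adjusted p = 0.0419). It was no longer called without control replicate 1, 2 or 3, or without KIFC1 siRNA replicate 1 or 2, at adjusted p of 0.0925 to 0.234, and the range over the alternatives was 0.000202 to 0.234. Of the endocytic genes together, 0 were called without control replicate 2 or 3, 1 without control replicate 1 or KIFC1 siRNA replicate 1 or 2, and 4 without KIFC1 siRNA replicate 3. The totals over all genes moved too, from 9 higher and 15 lower without control replicate 3 to 194 and 274 without KIFC1 siRNA replicate 3. Nothing particular to the endocytic genes is read from these counts.

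In the fit blocked on replicate number, 4 of the 21 endocytic genes were higher and 3 lower, beside 2.72% and 3.06% of all genes tested. The 5 beside RAB7A and NEDD4L are named because they were called there, after their values were seen. OCRL, the phosphatase gene of the other form of Dent disease, had a log2 fold change of -0.30 (SE 0.12, adjusted p = 0.419 without and 0.0272 with the block, range 0.0212 to 0.972, edgeR). INPP5B, its closest relative, had one of 0.48 (SE 0.15, adjusted p = 0.240 without and 0.0271 with the block, range 0.0271 to 0.763). OCRL thus lay lower and its relative higher in the means. The others were WWP2, another ligase of the NEDD4 family (0.45, SE 0.12, adjusted p = 0.148 without and 0.00517 with the block, range 0.00517 to 0.649), RAB11B of recycling endosomes (-0.33, SE 0.12, 0.345 and 0.0207, range 0.0207 to 0.803), and PIK3C3, the lipid kinase of early endosomes (0.33, SE 0.16, 0.575 and 0.0452, range 0.0452 to 0.971). LRP2 and CUBN, the receptors whose uptake fails in Dent disease, had 2 to 18 and 3 to 7 counts per library and did not pass the filter, whereas AMN, the membrane partner of CUBN, had 68 to 98 counts and was not called.

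Of 31 tested lysosomal genes, 0 were called (0.332% higher and 0.379% lower over all genes tested). In this list 1 had an unadjusted p under 0.05 (9.24% of all genes tested), and the median log2 fold change was 0.08. LAMP2, an abundant lysosomal membrane protein, stood at 125.1 ± 9.50 CPM in control cells and 136.1 ± 16.5 CPM after KIFC1 siRNA (SD, n = 3).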

How the data were processed

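Total RNA was extracted with RNAiso Plus, and reads were mapped by the authors on GRCh38 (HISAT2 2.2.1, default settings) and counted per gene with featureCounts 2.0.8. They deposited whole read counts for 28395 NCBI gene IDs, without normalization. The annotation, the strand setting and the handling of reads with several alignments are not given in the sources used here. The submitters' processing notes also name DESeq2 1.46.0 in R 4.4.2.

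Of the IDs, 27745 were matched to a RefSeq symbol (GRCh38.p14), and the others held 0.0618% of the counts. The deposited counts were filtered by group (filterByExpr), scaled by TMM and compared, KIFC1 siRNA minus control siRNA, in a robust quasi-likelihood fit (edgeR 4.0.16, R 4.3.3). P-values, two-sided, were adjusted by Benjamini-Hochberg over all 14776 genes kept, and those under 0.05 were called. The script was tested on simulated data. The biological coefficient of variation was 13.1%. Library totals of 15392374 to 17754458 counts set the counting error, and floors of 3 counts cover counting error only. An exact permutation test of 3 libraries against 3 cannot go below p = 0.10 and was not used. Positions, exon lengths and sequences came from GENCODE 44 and the GRCh38 sequence. Summaries used Python 3.11.15 with pandas 2.3.3 and numpy 2.4.6, and plots used matplotlib 3.10.9.

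The groups share replicate numbers 1 to 3. After removal of each group's mean, the correlation over 12947 genes was 0.440, 0.354 and 0.434 between same-numbered libraries and -0.392 to -0.0208 between others. Deviations from a group's mean cancel within the group, so positive same-numbered values push the others to be negative. The negative values are therefore no separate evidence. From the same-numbered values, the numbers were taken to pair the libraries, and the replicate block was fitted as an alternative. Nothing in the labels says what the numbers share.

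Alternatives were DESeq2 1.42.0 on the same genes, limma-voom (limma 3.58.1), DESeq2 size factors, library size only, no filter on low counts, at least 10 counts in every library, the replicate block, leaving out mitochondrial genes, leaving out each library in turn, and the longest transcript as the length. RAB7A and NEDD4L were added to these after the data were seen. The members and the gene lists, written by hand from general knowledge, were chosen with earlier results of these data known. Named from each list were its called genes or, with none, the 2 with the smallest p. Some genes that this rule names are not reported here. Also named were all members and relatives or partners, the 5 genes with the highest r to CLCN5, and genes that overlap a member. ATP6V1A, LAMP2, AMN, CHGA, the markers of other cells, and the endocytic genes called with the block were named outside this rule.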

Additional observations from a re-analysis of the deposited data

How the results depend on the processing

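CLCN5 kept its direction in 14 of 14 alternatives, with log2 fold changes of -1.225 to -1.072, and so did CLCN2 (-0.188 to -0.061) and OSTM1 (0.187 to 0.395). For CLCN5 this is a description only, because it was chosen for its fall in these same libraries and refits of them could hardly reverse it. None of the 6 other members was called in any of the 14. CLCN3 changed sign without KIFC1 siRNA replicate 1 (0.032), without control replicate 3 (0.05) and without KIFC1 siRNA replicate 2 (0.065), within a leave-one-out range of -0.124 to 0.065. CLCN4 (0.002, range -0.111 to 0.002) and CLCN6 (0.011, range -0.221 to 0.011) changed sign without KIFC1 siRNA replicate 1, and CLCN7 without KIFC1 siRNA replicate 3 (0.015, range -0.214 to 0.015). The cause was not tested.

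The counts of genes called, 49 higher and 56 lower, became 125 and 145 with DESeq2 on the same genes, 121 and 144 with no filter on low counts, and 402 and 452 with the replicate block. With 1 library left out they ran from 9 to 194 higher and from 15 to 274 lower, lowest without control replicate 3 and highest without KIFC1 siRNA replicate 3. The pairing by replicate number changed no call among the 6 members and, in the lists, added genes that include BEST1, TTYH3, SLC12A2, OCRL, INPP5B, WWP2, RAB11B and PIK3C3. Without KIFC1 siRNA replicate 3, 1 gene each of the endosomal cation and lysosomal lists was called. Without the filter, and likewise with the replicate block, 1 gene of the endosomal cation list was called. The lower bound for KIFC1 was 2.65-fold or more in each of its 7 alternatives. Genes of few counts, such as BEST1 and the scarce CLC relatives and partners, are limited by depth.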
